A study of Mus musculus with 8 samples.

Results

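The solute carriers are a large superfamily of membrane transporters in mammals. Their families are grouped by sequence, and what they move ranges from sugars, amino acids, fatty acids and bile acids to metals, phosphate and the metabolites exchanged across the mitochondrial membrane. In liver they set which nutrients, drugs and bile acids enter and leave the hepatocyte, and how glucose 6-phosphate reaches the enzyme that turns it into free glucose for the blood. The genes described here were all those on the array whose mouse symbol begins with Slc, a family number and the letter a, or with Slco, the symbol of the organic anion transporters. They were 182 of the 8789 genes that had a name on the array, measured by 244 of its 20355 spots, and RefSeq lists 361 protein-coding mouse genes with such symbols. Chosen by symbol alone, they included genes that are not themselves transporters, such as the scaffold proteins Slc9a3r1 and Slc9a3r2.

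Livers of 4 male Eps8KO mice, 17 weeks old, were compared with a pool of liver RNA from WT mice. Eps8KO mice lack Eps8, an actin capping and bundling protein, in every tissue. Animals of both genotypes came from crosses of heterozygous parents on a C57BL/6 background and ate standard chow freely. The labels give the pool as 4, 5 or 6 mice in different places, and it was used on every array, so it counted as 1 control sample and the spread between WT mice was not measured. Each Eps8KO liver was hybridised on 2 cDNA arrays with the fluorescent dyes exchanged, once with Eps8KO RNA in Cy5 and the pool in Cy3, and once the other way round. All values below are log2 ratios of Eps8KO over the WT pool, with the sign turned where Eps8KO RNA carried Cy3, so that a positive value means more RNA in Eps8KO liver. A ratio gives no level, so neither the abundance of a transporter nor the presence of liver markers could be checked. No probe was named for Eps8, and the study states that liver does not express it. The knockout itself could therefore not be checked here.

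Of the 182 solute carrier genes, 171 had a value in all 4 mice and were tested, among 15455 tested features in all. The 11 without one were Slc12a1, Slc12a7, Slc22a5, Slc22a8, Slc25a45, Slc44a4, Slc45a3, Slc4a8, Slc7a7, Slc8a3 and Slco1c1. A value on all 8 arrays was present for 130 genes. The arrays had 17968 to 18802 values each. Of the gene lists looked at, the acute phase genes, which the liver makes in response to inflammation, stood furthest from the pool, with a median log2 ratio of -1.74 over 19 tested genes, 15 of them at least 1.6-fold lower with p under 0.05 (1.57% of all features) and 11 below 0 on all 8 arrays (0.571% of all features). Low ratios of these genes took part in matching probes to names, so their values are a description. Marker lists for other cells of the liver were also read. No Kupffer cell, endothelial, stellate cell, lymphocyte or red blood cell marker had p under 0.05 (6, 6, 6, 7 and 3 tested). Of 4 bile duct markers 1 did, the keratin Krt7 at -1.51, named after its value was seen. Krt7 was below 0 on 4 arrays and above 0 on 0, and Krt19, Sox9 and Epcam averaged 0.14, -0.06 and -0.05. Over all features, 2.15% were higher and 3.09% lower at p under 0.05. In whole liver, fewer cells of a type and less RNA per cell cannot be told apart.

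As a group, the solute carrier genes stayed close to the WT pool. Their median log2 ratio was 0.041, beside 0.017 over all features, with 99 genes above 0 and 72 below. The mean of 95 genes lay within 0.25 of 0, a further 60 lay between that and 1.6-fold (0.68 on the log2 scale), and 16 lay beyond. The test was limma's moderated test of the mean of 4 mice against 0, and the threshold was the 1.6-fold of the study's methods together with an unadjusted p under 0.05. By this rule 1 solute carrier gene, Slc37a4, was higher in Eps8KO liver, where 1.06% of all features were, and 4 were lower, Slc41a2, Slc2a8, Slc66a2 and Slc15a4, where 1.57% of all features were. At p under 0.05 alone 2 were higher and 9 lower, against a background of 2.15% and 3.09% of all features. No gene passed at an adjusted p under 0.05, and 0% of all features did. The smallest adjusted p of limma was 0.454 among the solute carriers and 0.119 over all features. With 4 mice, an exact sign permutation of 1 gene cannot go below p = 0.125.

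**Figure D1:**
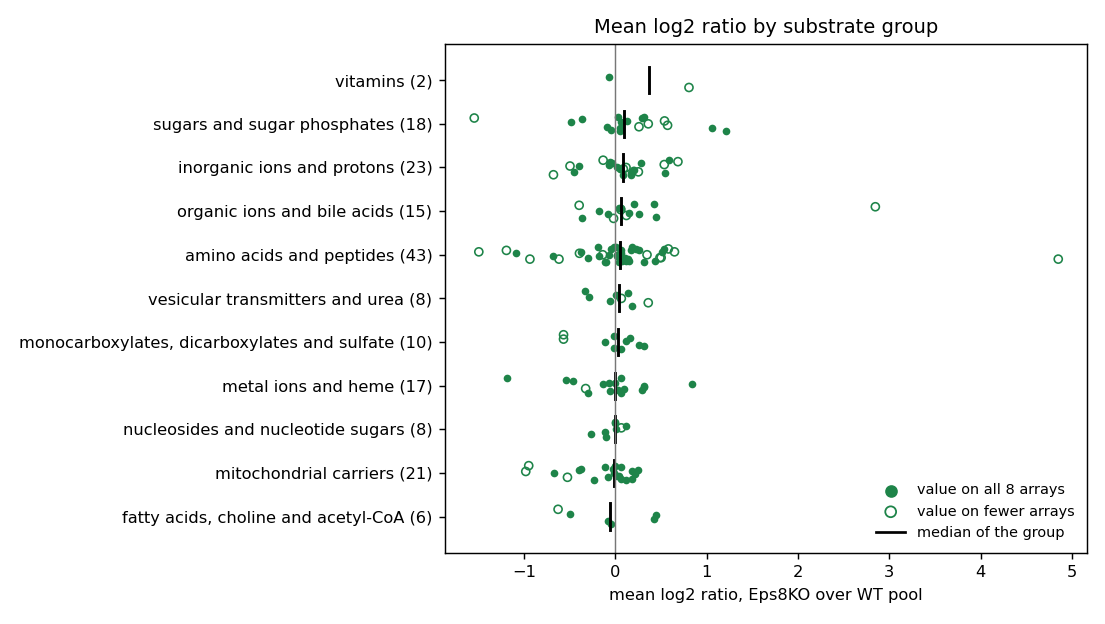
Mean log2 ratio of Eps8KO over the WT pool (horizontal axis) for each of the 171 tested solute carrier genes, by substrate group with the number tested, with the median of each group as a black bar. Group medians lie near 0, and open points, which had values on fewer than 8 arrays, lie further out than filled ones.

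The ratio of most genes depended on which dye carried the Eps8KO RNA. Among the 130 genes with 8 values, the mean over the 4 arrays with Eps8KO in Cy5 and the mean over the 4 arrays with Eps8KO in Cy3 had the same sign in 34 and opposite signs in 96. This is a share of 26.2% with the same sign, beside 29.0% of all features measured on 8 arrays. The gap between orientations had a median size of 0.546, was under 0.5 in 60 genes and was over 1 in 36 genes. It was largest for Slc37a4, at -4.25. In 83 genes the Cy5 value was the lower one. Across the 130 genes the means of the orientations correlated with r = -0.475. This is a description over genes, which share the arrays, the dyes and the pool. A gap with p under 0.05 was found in 45 of 130 genes (background 29.1%), and none passed at an adjusted p under 0.05 (background 0.0597%), the smallest of limma being 0.0522. With array medians set to 0, 46 of 130 had p under 0.05 in the same limma test. Again 0 passed at an adjusted p under 0.05 (background 0.0597%).

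Among the substrate groups, the mitochondrial carriers were the one that read the other way. Over genes with any value in an orientation, their median was 0.08 with Eps8KO in Cy5 and -0.29 with Eps8KO in Cy3, while the solute carriers as a whole had medians of -0.24 in Cy5 and 0.27 in Cy3. The medians of all features, -0.22 in Cy5 and 0.26 in Cy3, were like those of the solute carriers. The pattern was not particular to mitochondrial carriers. Some gene lists shared it, such as abundant liver and housekeeping genes with 0.56 in Cy5 and -0.57 in Cy3. Others did not, such as the lymphocyte markers with -0.28 in Cy5 and 0.61 in Cy3. Before turning, the median of Cy5 over Cy3 was below 0 on every array, from -0.28 to -0.08, and arrays were not centred. Turning the sign places such an offset below 0 in Cy5 and above 0 in Cy3. Whether the dyes themselves gave the gaps in these lists was not tested.

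**Figure D2:**
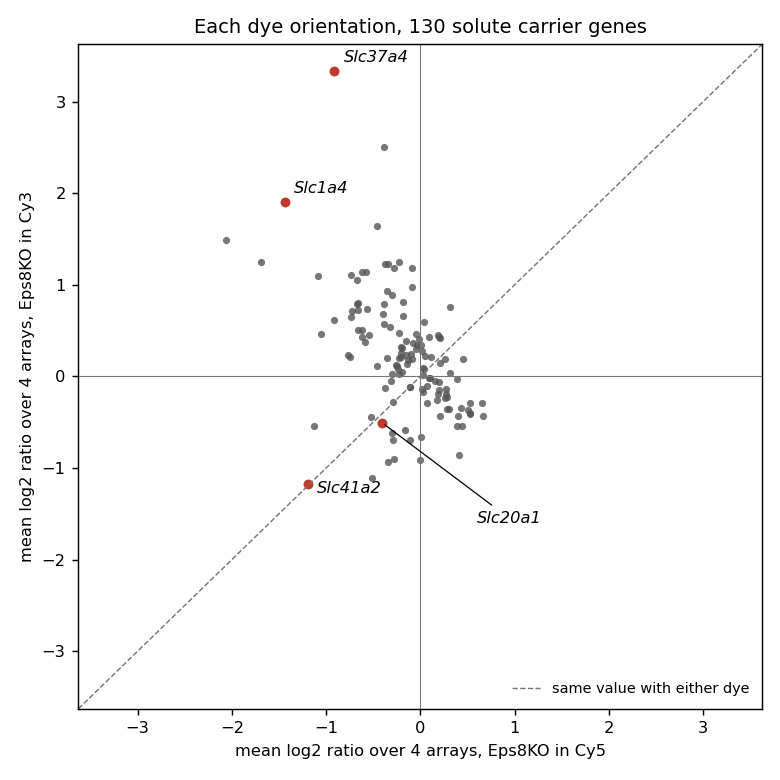
Mean log2 ratio over the 4 arrays with Eps8KO in Cy5 (horizontal) against that over the 4 arrays with Eps8KO in Cy3 (vertical), 1 point for each of 130 solute carrier genes. Most points lie off the dashed line of equal values and in the quadrants of opposite sign; Slc41a2 lies on the line at -1.20 and -1.17, and Slc37a4 lies furthest from it.

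Only 2 of the 130 genes had the same sign on all 8 arrays, Slc41a2 and Slc20a1. Both were below 0, as were 0.571% of all features on 8 arrays. None was above 0 on all 8, as 0.375% of all features were.

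Slc41a2 encodes a magnesium transporter. With Eps8KO RNA in Cy5 its log2 ratio was -1.38, -0.90, -1.03 and -1.48 in mice 1 to 4. With Eps8KO RNA in Cy3 it was -1.57, -0.88, -1.20 and -1.06 in the same mice. Every array placed Eps8KO liver below the pool, and the gap between orientations was -0.02. The mean was -1.19 ± 0.25 (SD, n = 4), a ratio of 0.44 to the WT pool. In the test on 4 mouse means the adjusted p of limma was 0.454. In a limma fit on the 8 arrays with the dye as a term and the mouse as a random block, its adjusted p was 0.00437, and it was the only solute carrier gene of 130 called, where 0.298% of all features were. The estimated correlation between arrays of a mouse was -0.00244 in that fit, so it took the 8 arrays almost as independent samples. Some alternatives were run for single genes: arrays centred, limit values or 1 mouse left out, or the dye term fitted. Over these, limma's adjusted p of Slc41a2 ran from 0.00437 to 0.928. One spot measured the gene.

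Slc20a1, a sodium-dependent phosphate transporter found in most cells, was lower by a smaller amount. Its log2 ratio was -0.51, -0.59, -0.39 and -0.14 in mice 1 to 4 with Eps8KO in Cy5, and -0.62, -0.26, -0.27 and -0.87 with Eps8KO in Cy3. The mean of -0.46 ± 0.10 (SD, n = 4) did not reach 1.6-fold, and limma's adjusted p was 0.848 on 4 mice and 0.292 with the dye term. Its paralog Slc20a2 had a mean of 0.69 ± 0.83 (SD, n = 4) from 7 arrays, with orientation means of -0.22 in Cy5 and 1.62 in Cy3.

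The promoters of this pair are shown because they were the genes that every array placed on the same side of the pool. Each is 300 bases of RefSeq sequence, build GRCm38.p6, from 250 bases before to 50 bases after an annotated start. Slc41a2 lies at chr10:83337768-83338067 on the minus strand, and Slc20a1 at chr2:129198523-129198822 on the plus strand, the first of 2 annotated starts. Capitals mark matches, on either strand, to the motifs named after the sequences.
Slc41a2: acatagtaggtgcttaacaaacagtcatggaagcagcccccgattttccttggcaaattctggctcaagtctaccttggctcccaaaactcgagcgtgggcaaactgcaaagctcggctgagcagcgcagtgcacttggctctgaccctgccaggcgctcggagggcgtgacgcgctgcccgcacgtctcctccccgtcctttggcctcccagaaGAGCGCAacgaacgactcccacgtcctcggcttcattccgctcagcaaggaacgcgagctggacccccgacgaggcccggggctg
Slc20a1: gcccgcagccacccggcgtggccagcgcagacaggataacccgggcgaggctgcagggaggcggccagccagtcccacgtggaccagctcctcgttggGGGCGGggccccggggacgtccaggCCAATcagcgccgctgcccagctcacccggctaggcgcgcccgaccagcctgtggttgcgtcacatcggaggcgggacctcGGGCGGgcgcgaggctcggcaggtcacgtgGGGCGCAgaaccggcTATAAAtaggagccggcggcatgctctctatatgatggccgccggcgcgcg
The motifs searched, chosen after the values were seen, were the TATA box TATAAA, the CCAAT box CCAAT, the GC box GGGCGG, the STAT motif TTCNNNGAA and the metal response element as TGCACNC or TGCGCNC. In the Slc41a2 window the only match was TGCGCNC, on the reverse strand from 35 bases before the start. In the Slc20a1 window TGCGCNC matched on the reverse strand from 16 bases before the start, CCAAT at 127, GGGCGG at 152 and 46, and TATAAA from 1 base before the start. None of these matches overlapped. The window at the other annotated start of Slc20a1, not shown, held GGGCGG once, on the reverse strand, and none of the other motifs. Of all 32851 promoter windows of this length, 15.4% held TGCGCNC, 12.6% TGCACNC, 37.4% CCAAT, 35.7% GGGCGG, 13.6% TATAAA and 8.3% TTCNNNGAA. A match describes the letters and is no measurement of binding.

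**Figure D3:**
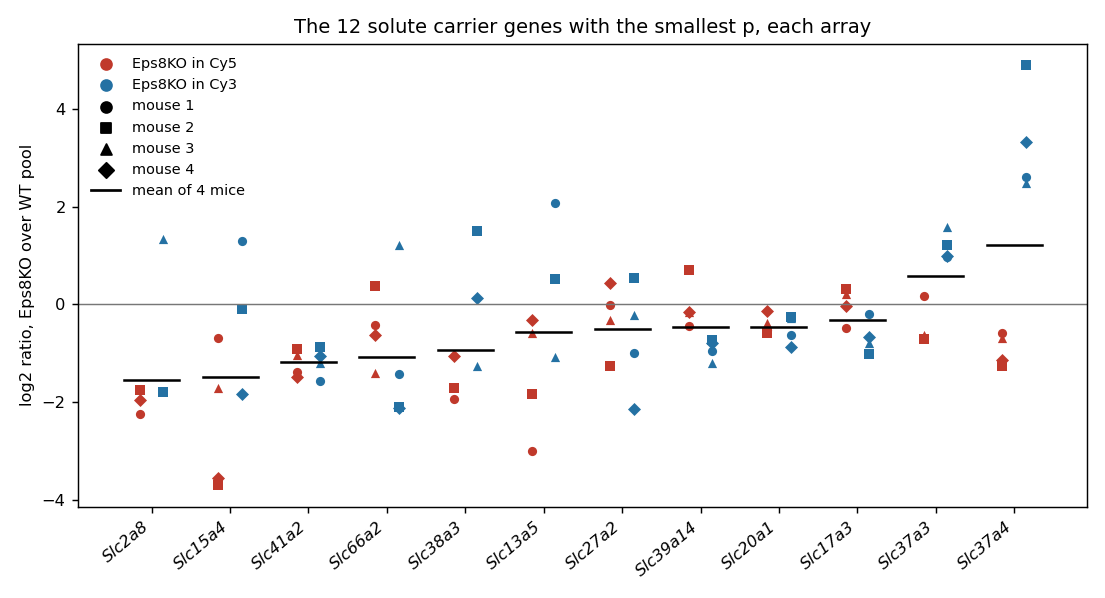
Log2 ratio of Eps8KO over the WT pool (vertical axis) on each array for the 12 solute carrier genes with the smallest p, red with Eps8KO in Cy5 and blue with Eps8KO in Cy3, with a marker shape for each mouse and the mean of 4 mice as a bar. For Slc41a2 and Slc20a1 all 8 points lie below 0; for Slc37a4 the 4 red points lie below 0 and the 4 blue points above 2.

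Among the sugar and sugar phosphate transporters, 18 of 19 genes were tested, with a median of 0.10, 13 above 0 and 5 below. Slc37a4, the transporter that carries glucose 6-phosphate into the endoplasmic reticulum for glucose 6-phosphatase, had the largest mean of the genes measured on all 8 arrays, 1.21 ± 0.42 (SD, n = 4), a ratio of 2.31 to the WT pool. The means of mice 1 to 4 were 1.01, 1.82, 0.90 and 1.10. The single arrays did not share that sign. With Eps8KO in Cy5 the ratio was -0.58, -1.26, -0.69 and -1.13, and with Eps8KO in Cy3 it was 2.60, 4.90, 2.49 and 3.33. All 4 mice were therefore below the pool in one orientation and above it in the other, and the positive mean came from the larger Cy3 values. Limma's adjusted p was 0.635 on 4 mice and 0.239 with the dye term. With opposite signs by dye in all 4 mice, its direction in Eps8KO liver is not settled.

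Slc37a3, of the same family, showed the same pattern at a smaller size. Its ratio was 0.17, -0.70 and -0.62 in mice 1 to 3 with Eps8KO in Cy5, where mouse 4 had no value, and 0.98, 1.21, 1.58 and 0.99 with Eps8KO in Cy3. The mean was 0.57 ± 0.31 (SD, n = 4) with an adjusted p of limma of 0.906. The medians over the 4 genes of the family were -0.73 in Cy5 and 0.90 in Cy3.

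Slc2a8, the intracellular hexose transporter GLUT8, had the lowest mean of all tested solute carriers, -1.54 ± 0.91 (SD, n = 4). With Eps8KO in Cy5 its 4 values were -2.24, -1.76, -1.74 and -1.96. With Eps8KO in Cy3 mouse 2 had -1.79 and mouse 3 had 1.33, while mice 1 and 4 had no value. Of the 6 arrays 5 were below 0, and the Cy3 pair disagreed in sign. The adjusted p of limma was 0.848, and Slc2a8 was not called without mouse 2 (-1.47) or mouse 4 (-1.41). Of all 14 alternatives, it was called in 8. It lacked the values to be tested in Cy3 alone, on all 8 arrays, with the dye term, or with pairs differing by over 1 left out. Slc2a2, the main glucose transporter GLUT2 of hepatocytes, averaged 0.13 ± 0.47 (SD, n = 4), with mice 2 and 3 at 0.49 and 0.56 and mice 1 and 4 at -0.20 and -0.35.

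The enzymes around glucose 6-phosphate and gluconeogenesis were looked at beside Slc37a4. Of 20 genes listed 11 were measured, and 0 had p under 0.05. Neither G6pc, the glucose 6-phosphatase subunit of liver, nor Pck1 was among the 11, so these values do not cover them. Their median was 0.054, beside 0.017 over all features, and their means ran from -1.26 to 1.03. G6pc3, the glucose 6-phosphatase catalytic subunit of most tissues, averaged 0.23 ± 0.27 and Pcx, pyruvate carboxylase, -0.01 ± 0.30. The gluconeogenic phosphatase Fbp1 averaged -0.33 ± 0.98 (SD, n = 4 each).

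For the metal ion and heme transporters, 17 of 17 genes were tested, with a median of 0.002 and, apart from Slc41a2, values between -0.54 and 0.84. Slc39a14, the zinc, iron and manganese importer of hepatocytes that mouse liver induces in the acute phase response, averaged -0.46 ± 0.31 (SD, n = 4). With Eps8KO in Cy5 it was -0.43, 0.70, -0.14 and -0.15 in mice 1 to 4, and with Eps8KO in Cy3 it was -0.96, -0.73, -1.20 and -0.78. Thus 7 of 8 arrays were below 0, and the lower values were those in Cy3. Limma's adjusted p was 0.906. The metallothioneins Mt1 and Mt2, zinc-binding proteins of the acute phase list, averaged -3.53 ± 0.44 and -1.26 ± 0.43 (SD, n = 4) and were below 0 on all 8 arrays. The part of the acute phase genes in the value of Slc39a14 was not tested. Slc39a10, another zinc importer, averaged 0.31 ± 0.25 (SD, n = 4), with its 3 probes between -0.07 and 0.63. Its orientation means were -0.18 in Cy5 and 0.66 in Cy3.

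In the amino acid and peptide group, 43 of 44 genes were tested and the median was 0.056. Slc15a4, a lysosomal histidine and peptide transporter, averaged -1.49 ± 1.28 (SD, n = 4). Its values were -0.68, -3.70, -1.70 and -3.54 with Eps8KO in Cy5, and 1.30, -0.09 and -1.83 in mice 1, 2 and 4 with Eps8KO in Cy3. Mouse 1 was above the pool on average and the other 3 mice were below it. Slc66a2 averaged -1.08 ± 0.69 (SD, n = 4). With its probes averaged on each array, it was -0.43, 0.38, -1.41 and -0.62 in Cy5, and -1.43, -2.09, 1.21 and -2.12 in Cy3. In mice 2 and 3 the arrays of the pair had opposite signs. Its 3 probes had means between -2.05 and -0.16, so the size of its ratio depended on the probe. The adjusted p of limma was 0.906 for Slc15a4 and 0.902 for Slc66a2. Slc15a4 was not called without mouse 2, 3 or 4 (means of -1.36, -1.42 and -1.09), and Slc66a2 was not called without mouse 1 (-1.13). Of all 14 alternatives, Slc15a4 was called in 6 and Slc66a2 in 8. Like Slc2a8, Slc15a4 could not be tested in the alternatives that needed all Cy3 values or left out pairs differing by over 1. Slc38a3, the glutamine transporter SNAT3 of hepatocytes, had -1.92, -1.70 and -1.05 in mice 1, 2 and 4 with Eps8KO in Cy5, and 1.49, -1.25 and 0.14 in mice 2, 3 and 4 with Eps8KO in Cy3. Its mean was -0.93 ± 0.82 (SD, n = 4), it missed p under 0.05 narrowly, and without mouse 1 the mean was -0.60.

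Slc6a13, a GABA transporter that liver also makes, averaged 0.58 ± 0.74 (SD, n = 4), with 1.67 in mouse 2 from 1 array and 0.07 to 0.42 in the other mice. Without mouse 2 the mean was 0.22. Slc3a1, the heavy subunit of the cystine and dibasic amino acid transporter, falls outside the rule for named genes and is given because it was called in 4 of 14 alternatives. It averaged -0.69 ± 0.62 (SD, n = 4), with its probes at -1.02 and -0.35. Slc6a11, also chosen after its values were seen, had the highest mean of all solute carriers, 4.85, and owed it to mouse 3, whose 15.76 was the upper limit value of its array. The other mice had 0.85, 4.37 and -1.57.

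Among the fatty acid and choline transporters, 6 of 7 were tested with a median of -0.06. Slc27a2, which imports fatty acids and activates very long chain ones, averaged -0.49 ± 0.26 (SD, n = 4). With Eps8KO in Cy5 it was -0.02, -1.26, -0.31 and 0.44, and with Eps8KO in Cy3 -0.998, 0.55, -0.22 and -2.13. All 4 mouse means were below 0, yet in mouse 2 and mouse 4 the arrays of the pair had opposite signs. Limma's adjusted p was 0.906. Slc27a5, the bile acid coenzyme A ligase of liver, averaged -0.63 ± 0.84 (SD, n = 4), with mouse 1 at 0.15 and mouse 4 at -1.71, and -0.27 without mouse 4.

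The carnitine shuttle and fatty acid oxidation list around these genes had 7 of 11 listed genes tested, 0 with p under 0.05, and a median of 0.038. Cpt2, which completes the import of fatty acids into mitochondria, averaged 0.05 ± 0.15 (SD, n = 4). The gene furthest from 0 on this list was Acadvl, the first enzyme of long chain fatty acid oxidation, with a mean of -0.66 ± 0.69 (SD, n = 4), 4 of 4 mouse means below 0, and orientation means of 0.03 in Cy5 and -1.34 in Cy3.

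The citrate and monocarboxylate transporters had 10 genes, all tested, with a median of 0.03. Slc13a5, the citrate importer of the hepatocyte membrane, averaged -0.57 ± 0.22 (SD, n = 4). Its values were -2.99, -1.83, -0.59 and -0.32 with Eps8KO in Cy5, and 2.08, 0.52 and -1.07 in mice 1, 2 and 3 with Eps8KO in Cy3. The mouse means of -0.46, -0.65, -0.83 and -0.32 were close together because large values of opposite sign cancelled in mouse 1 and mouse 2. The adjusted p of limma was 0.848. Slc16a11, a monocarboxylate transporter, was above 0 on 7 of 8 arrays with a mean of 0.32 ± 0.16 (SD, n = 4), the exception being -0.51 in mouse 4 with Eps8KO in Cy5. Slc16a1, the lactate and pyruvate transporter MCT1, averaged 0.12 ± 0.11 (SD, n = 4), made of -0.15 in Cy5 and 0.39 in Cy3.

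Close agreement of the 4 mouse means did not require agreement between the arrays. Slc17a3, an organic anion and urate transporter, had mouse means of -0.33, -0.35, -0.29 and -0.35, the smallest spread of any tested solute carrier (0.03, SD, n = 4). Its arrays ran from -0.47 to 0.32 with Eps8KO in Cy5 and from -1.02 to -0.19 with Eps8KO in Cy3. Slc28a2, a purine nucleoside transporter, had a mean of -0.10 ± 0.03 (SD, n = 4) made of -0.58 in Cy5 and 0.38 in Cy3.

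Of the 22 mitochondrial carriers 21 were tested, with a median of -0.015 and none at p under 0.05 in either direction. Slc25a13, the aspartate and glutamate carrier citrin, was 0.46 to 0.94 with Eps8KO in Cy5 and -0.68 to -0.13 with Eps8KO in Cy3, with a mean of 0.18 ± 0.19 (SD, n = 4). The citrate carrier Slc25a1 read 0.53 in Cy5 and -0.29 in Cy3, with a mean of 0.12 ± 0.16 (SD, n = 4). Both were opposite in orientation to Slc37a4. Slc25a44, a branched-chain amino acid carrier, was below 0 in all 4 mouse means, -0.11 ± 0.07 (SD, n = 4), but above 0 on all 4 arrays in Cy5 (mean 0.21) and below 0 on all 4 in Cy3 (mean -0.43). Slc25a46, a protein of the outer mitochondrial membrane, averaged -0.67 ± 0.73 (SD, n = 4) with its 3 probes at -2.11, -0.62 and 0.70, and -0.32 without mouse 4, which was at -1.73. Slc25a5, an ADP/ATP exchanger, had mouse means of 0.01, -0.81, 0.30 and -1.01. The dicarboxylate carrier Slc25a10 averaged 0.25 ± 0.56 (SD, n = 4) with mouse 2 alone far above 0 at 1.08. Its orientation means were -0.40 in Cy5 and 0.68 in Cy3.

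The organic ion and bile acid transporters had 15 of 18 genes tested, with a median of 0.067 and none at p under 0.05. Groups went by family number, so the Slc17a genes, Slc17a3 among them, were not counted here. The array named no Slc10a gene and neither Slco1a1 nor Slco1b2, so the group does not cover bile acid uptake by them. Slc22a7, the liver organic anion transporter OAT2, averaged -0.18 ± 0.17 (SD, n = 4). Slco2b1, an uptake transporter for organic anions, averaged -0.36 ± 0.77 (SD, n = 4), a value that mouse 1 made at -1.48 while the other mice lay between -0.28 and 0.18. Slco4a1 had a mean of 0.26 ± 0.21 (SD, n = 4) made of -0.62 in Cy5 and 1.14 in Cy3. Slco1a6, chosen after its values were seen, averaged 2.85 with mice at -0.06, -0.22, 8.21 and 3.45, and 1 of its values was at the upper limit of its array.

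Slc22a17 encodes a receptor for lipocalin 2, a protein of the acute phase list that binds bacterial iron carriers. The receptor averaged -0.08 ± 0.08 (SD, n = 4), its 2 probes at 0.07 and -0.22. Its ligand Lcn2 averaged -2.14 ± 0.64 (SD, n = 4) and was below 0 on all 8 arrays. Of 17 listed genes of bile acid synthesis and canalicular export 6 were tested, with a median of 0.034 and 0 at p under 0.05. Abcb11, the bile salt export pump, averaged 0.01 ± 0.22, and Nr1h4, the bile acid receptor FXR, -0.41 ± 0.56 (SD, n = 4 each).

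The remaining groups held few genes away from the pool. The inorganic ion group had 23 of 27 tested with a median of 0.089 and Slc20a1 as the 1 gene with p under 0.05. In this group Slc34a3, a sodium-phosphate cotransporter, averaged 0.21 ± 0.16 (SD, n = 4), made of -0.05 in Cy5 and 0.46 in Cy3. The 8 nucleoside and nucleotide sugar transporters had means between -0.27 and 0.12. The 8 genes placed by family number with the vesicular transmitter and urea transporters had means between -0.33 and 0.36. The lowest, Slc17a3, is the organic anion and urate transporter above and was the 1 gene of them with p under 0.05. The 2 vitamin transporters tested had a median of 0.37.

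Of 28 transporters listed as prominent in hepatocytes 17 were measured, and all 17 had a value in 4 mice. Their median was -0.042, with 8 above 0 and 9 below. By p under 0.05, 1 was higher (2.15% of all features), Slc37a4, whose sign depended on the dye, and 3 were lower (3.09% of all features), Slc13a5, Slc27a2 and Slc39a14. Slc1a2, Slc38a2 and Slc38a4, carriers of glutamate and neutral amino acids, had means of 0.06, 0.06 and -0.04, each smaller than its spread of 0.13, 0.40 and 0.59 (SD, n = 4).

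**Figure D4:**
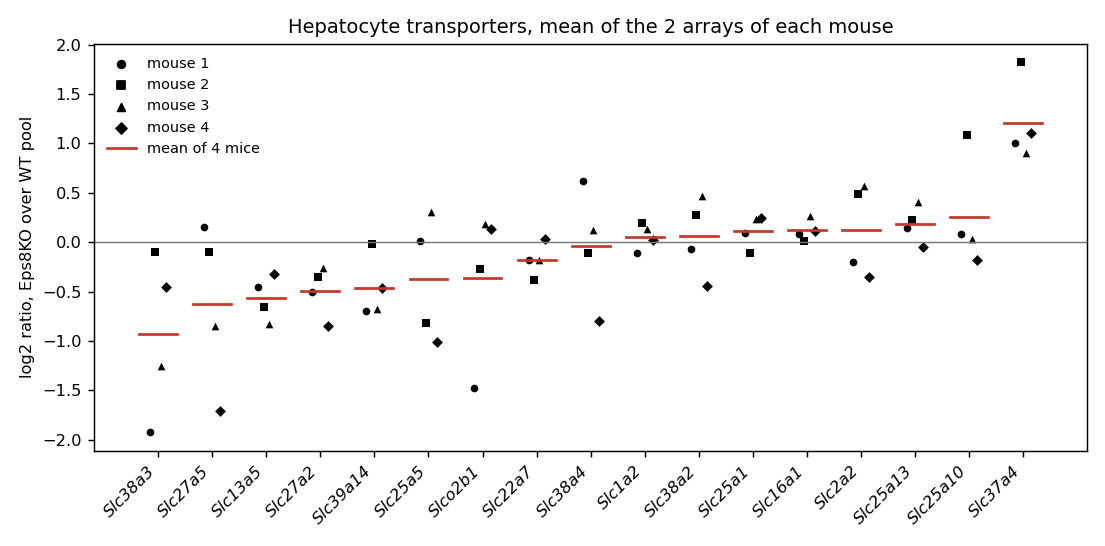
Log2 ratio of Eps8KO over the WT pool (vertical axis) in each of 4 mice, as the mean of its arrays, for the 17 measured hepatocyte transporters in order of their mean (red bar). Slc37a4 is the only gene with all 4 mice above 0.9. The highest mouse of Slc25a10 lies at 1.08 and the lowest of Slco2b1 at -1.48.

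How far a mean lay from 0 went with how many arrays had measured it. The 130 genes on all 8 arrays had a median SD between mice of 0.323 and a median size of the mean of 0.136, and 6 of them lay beyond 1.6-fold. The 41 tested genes with fewer values had a median SD of 1.22 and a median size of 0.523. The largest mean was 1.21 among the 130 and 4.85 among the 41. Of the 5 genes called at 1.6-fold, Slc2a8 and Slc15a4 were among the 41. Between any pair of mice, the means of the 171 genes correlated across genes with r from -0.101 to 0.37, a description over genes that share a pool.

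**Figure D5:**
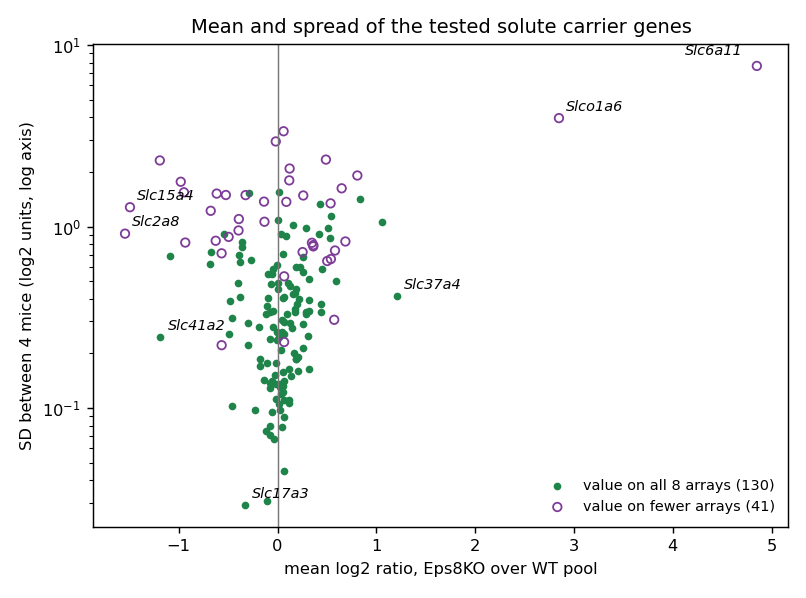
Mean log2 ratio of Eps8KO over the WT pool (horizontal) against the SD between 4 mice (vertical, log axis) for 171 solute carrier genes, filled where all 8 arrays had a value and open where fewer did. Open points lie higher, up to 7.67 for Slc6a11, while Slc41a2 and Slc37a4 stand out from 0 with SDs of 0.25 and 0.42. For Slc37a4 each mouse mean averages arrays of opposite sign (means of -0.92 in Cy5 and 3.33 in Cy3), so its SD does not show agreement between arrays.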

How the data were processed

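Liver RNA was hybridised on 2-colour cDNA arrays. Per the deposited table, each value is a log2 ratio, Cy5 over Cy3. For the study's own analysis the authors describe total intensity normalisation in MIDAS, background, tolerance and flip dye checks and SAM. Whether the deposited values follow those checks is not given in the sources used here, and array means ran from -0.39 to -0.18. Spot intensities were not analysed, so depth is unknown, and precision is limited by how many arrays there were. Columns of other samples left out numbered 0.

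Names came from the platform's table, with probe numbers shifted by 32 against the rows of the values. The shift was found from the values, and low ratios of acute phase genes took part in an earlier choice of it. At this shift 66 probes of abundant liver and housekeeping genes had a median SD of 0.37 between arrays of the same orientation, against 0.668 for 65 probes with no shift and 0.636 over all spots. Every gene name in the text rests on this shift. Symbols of all 12398 probes with 1 symbol matched RefSeq gene IDs, and 12367 rows were named.

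After turning, each mouse's 2 arrays were averaged, and after that all probes sharing a gene symbol. The two-sided test, for features that no mouse lacked, was limma 3.58.1 (lmFit, eBayes; R 4.3.3) with Benjamini-Hochberg adjustment over all features. The fit was tested on simulated data. The p-values measure the spread between these 4 mice only. Genes named were Slc37a4, Slc41a2, the 12 with the smallest p, the highest and lowest mean of each substrate group among genes with 1 sign in 4 mice, and listed hepatocyte transporters. Members, lists, the rule and the alternatives were chosen with earlier results of these data known.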

Additional observations from a re-analysis of the deposited data

How the results depend on the processing

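The counts of solute carrier genes at 1.6-fold depended most on the dye. With Eps8KO in Cy5 alone 0 of 146 tested genes were higher (1.69% of all features) and 17 lower (10.3%), and with Eps8KO in Cy3 alone 22 of 145 were higher (11.4%) and 4 lower (3.57%), against 1 and 4 of 171 (1.06% and 1.57%) in the mean of both. These genes needed a value in all 4 mice of that orientation. Their median log2 ratio was -0.209 in Cy5 alone and 0.214 in Cy3 alone, where all features had -0.142 and 0.2. Arrays were not centred here, so these counts and medians include the array medians, which were below 0 before turning. Genes called higher numbered 4 of 180 with values in at least 3 mice (1.26% of all features), 0 of 65 under the flip dye filter, which left out pairs differing by over 1 (0.318%), 2 of 222 with 1 feature per probe (1.17%) and 0 of 171 at an adjusted p under 0.05. Genes called lower numbered 2 of 130 with the dye term and mouse block (1.1% of all features), 2 of 171 with no moderation (0.861%) and 0 of 171 at an adjusted p under 0.05. Leaving out each mouse in turn gave 2 to 6 higher and 2 to 5 lower of 172 to 176 tested (1.39% to 1.61% and 1.52% to 2.13% of all features), and medians from 0.005 to 0.051. Without mouse 4, 6 were higher and 2 lower. Without mouse 1, 2 or 3, the counts were 4 and 3, 4 and 5, and 2 and 3. Slc41a2 was called at 1.6-fold under all 14 alternatives that kept this rule. Slc37a4 was called in 13 of them, higher in 12 and lower with Eps8KO in Cy5 alone. The flip dye filter left out all its pairs, so Slc37a4 was not tested there. With limit values left out, 3 of 130 genes (5.3% of all features) passed at an adjusted p under 0.05 for the gap between orientations, Slc37a4, Slc1a4 and Slc8a2, against 0 of 130 (0.0597%) with them. These 3 genes had no limit values, so their own gaps did not change and only the fit and adjustment over other features did. The cause of the other changes above was not tested. Each orientation alone was not among the alternatives run for single genes, and the orientation means had opposite signs in 19 of 33 named genes. With both orientations in the mean, 28 of the 33 kept their sign when arrays were centred, limit values or 1 mouse left out, or, for the 26 on all 8 arrays, the dye term fitted. The other 5 changed sign when 1 mouse was left out. Slc25a10 ran from -0.021 without mouse 2 to 0.4 without mouse 4, Slc2a2 from -0.022 without mouse 3 to 0.285 without mouse 4, Slc38a2 from -0.078 without mouse 3 (-0.015 without mouse 2) to 0.225 without mouse 4, Slc38a4 from -0.261 without mouse 1 to 0.21 without mouse 4, and Slco2b1 from -0.54 without mouse 3 to 0.013 without mouse 1. No paired analysis was possible because the WT pool was 1 sample on every array.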
